A study of Mus musculus with 24 samples.

Results

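Transcript levels of respiratory complexes II to V were followed in the plantaris muscle of mice with and without myostatin, at rest and under mechanical overload. The set holds every gene with a probe set of a single gene symbol whose symbol names a subunit or assembly factor of succinate dehydrogenase (Sdha to Sdhd and the Sdhaf genes), the cytochrome bc1 complex (Uqcr genes and Cyc1), cytochrome c (Cycs), cytochrome c oxidase (Cox4 to Cox8 and Cox10 to Cox19) or ATP synthase (Atp5 genes). These were 59 of the 19937 genes on the array, chosen by name and not by their values, and the probe set with the highest mean over all 24 arrays stood for each gene. Of the 59 genes 58 passed the filter on low values and were tested. Cox7b2, a cytochrome c oxidase subunit gene known from testis, lay below it, with group means between 5.11 and 5.29 on the log2 intensity scale. By role the tested genes were 4 subunits and 4 assembly factors of complex II, 9 genes of complex III, cytochrome c, 16 subunits and 7 assembly factors of complex IV, and 17 genes of complex V.

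RNA came from the plantaris, a fast hindlimb muscle that extends the ankle, in wildtype animals and in Mstn-/- animals, whose gene for myostatin, a secreted inhibitor of muscle growth, is knocked out. In each genotype 6 mice were left untreated and 6 had the plantaris of both legs overloaded by surgical removal of the soleus and most of the gastrocnemius under pentobarbitone (50 mg/kg), giving 4 groups of 6 arrays, all from mice aged 3 months. The untreated mice had no operation, so surgery and overload differ together, the muscle of 1 side was used, and how long the overload lasted is not stated in the labels. Values are log2 of the deposited intensities, and all tests are limma contrasts over the 14499 tested genes with Benjamini-Hochberg adjusted p-values, called below 0.05, unless another test is named.

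The respiratory chain passes electrons from succinate (complex II) and NADH (complex I) through ubiquinone to complex III, then by cytochrome c to complex IV, where oxygen is reduced, and the proton gradient built on the way drives ATP synthesis at complex V. In skeletal muscle the amount of this machinery is known to follow mitochondrial content, and its nuclear genes are known targets of the regulators NRF1, GABPA, YY1 and the oestrogen-related receptors, with the coactivator encoded by Ppargc1a. Several complex IV subunits exist as a form used in most tissues and a form of heart and skeletal muscle: Cox6a1 and Cox6a2, Cox7a2 and Cox7a1, Cox8a and Cox8b.

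The promoters of the 4 isoform genes below are shown because Cox6a1 and Cox8a moved against nearly all other genes of the set, while Cox7a1 and Cox8b, muscle isoforms of complex IV subunits, were among those that fell under overload. The choice followed their values, so these 4 promoters support no comparison. Each is the 250 bases before the annotated start in RefSeq, assembly GRCm38.p6, written 5′ to 3′ on the gene's strand, with matches to the searched motifs in capitals. The regions are chr5:115348959-115349208 on the minus strand for Cox6a1, chr19:7217617-7217866 on the minus strand for Cox8a, chr7:30183921-30184170 on the plus strand for Cox7a1 and chr7:140900447-140900696 on the minus strand for Cox8b.
Cox6a1: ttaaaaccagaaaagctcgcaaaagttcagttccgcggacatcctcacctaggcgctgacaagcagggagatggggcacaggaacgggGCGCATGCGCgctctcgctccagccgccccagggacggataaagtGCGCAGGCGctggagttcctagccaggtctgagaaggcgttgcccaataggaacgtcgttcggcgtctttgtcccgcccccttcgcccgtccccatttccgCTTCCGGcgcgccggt
Cox8a: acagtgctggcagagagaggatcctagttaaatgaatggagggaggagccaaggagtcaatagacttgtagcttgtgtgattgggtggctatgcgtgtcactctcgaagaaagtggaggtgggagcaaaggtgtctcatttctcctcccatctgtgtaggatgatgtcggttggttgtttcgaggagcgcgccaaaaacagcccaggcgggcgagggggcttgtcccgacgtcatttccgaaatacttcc
Cox7a1: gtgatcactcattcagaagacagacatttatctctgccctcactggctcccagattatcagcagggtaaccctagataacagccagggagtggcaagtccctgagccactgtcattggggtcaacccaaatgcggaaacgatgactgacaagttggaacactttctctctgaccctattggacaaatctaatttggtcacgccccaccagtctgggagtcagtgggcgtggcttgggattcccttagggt
Cox8b: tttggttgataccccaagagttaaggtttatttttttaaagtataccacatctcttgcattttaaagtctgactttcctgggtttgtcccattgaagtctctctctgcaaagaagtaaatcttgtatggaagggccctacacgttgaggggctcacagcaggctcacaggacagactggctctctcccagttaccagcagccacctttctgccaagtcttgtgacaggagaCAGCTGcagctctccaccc

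In the Cox6a1 promoter the capitals mark 3 matches to the NRF1 motif GCGCANGCG, of which the first 2 lie on opposite strands and overlap, and 1 match to the GABPA motif CCGGAAG on the minus strand. The Cox8a and Cox7a1 stretches hold no complete match, and the Cox8b stretch holds 1 match to the E-box CAGCTG. In the full RefSeq windows, which reach from 250 bases before to 50 bases after the start, Cox8a has 2 GABPA matches, from positions -5 and 33, and Cox8b a second E-box from position 17. Promoters were found for 45 of the 59 genes. Of these 45 genes 33.3% held the NRF1 motif and 42.2% the GABPA motif on either strand, against 7.03% and 9.93% of the 27025 genes with a promoter in RefSeq. The oestrogen-related receptor motif TNAAGGTCA stood in 4.44% of them against 1.43% of all, and the YY1 motif AAGATGGCG in 6.67% against 1.64%. The E-box stood in 4.44% against 18.3% and the MEF2 motif in 0 of 45 against 3.7%. The E-box and MEF2 were added to the search after values had been seen. A match describes letters only, and binding was not measured.

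Array medians of intensity ran from 138.94 to 146.73. Without overload Mstn had a log2 intensity of 10.25 ± 0.11 (SD, n = 6) in wildtype and 8.93 ± 0.31 in Mstn-/- muscle, and with overload 8.40 ± 0.19 and 8.25 ± 0.30, so its level separates the genotype labels only without overload. Whether its probe set lies in the deleted part is not stated in the labels. Fibre markers (Acta1, Ckm, Myh4 and 5 others) averaged 13.51 in untreated and 13.24 in overloaded wildtype muscle, 13.41 and 13.39 in Mstn-/- muscle. In whole muscle, fewer fibres and less RNA per fibre cannot be told apart.

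Overload of wildtype muscle lowered transcripts of every complex. Of the 58 genes 48 fell and 2 rose, where 35.6% of all tested genes fell and 30.3% rose, and the median change was -0.41 on the log2 scale (1.33-fold lower) against -0.06 for all tested genes. All 4 complex II subunits, all 9 complex III genes, cytochrome c and 16 of 17 complex V genes fell. In complex IV, 10 of 16 subunits fell and 2 rose, and 5 of 7 assembly factors fell. For 43 of the 58 genes (74.1%) the 6 overloaded and 6 untreated arrays did not overlap, against 43.0% of all tested genes.

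**Figure D1:**
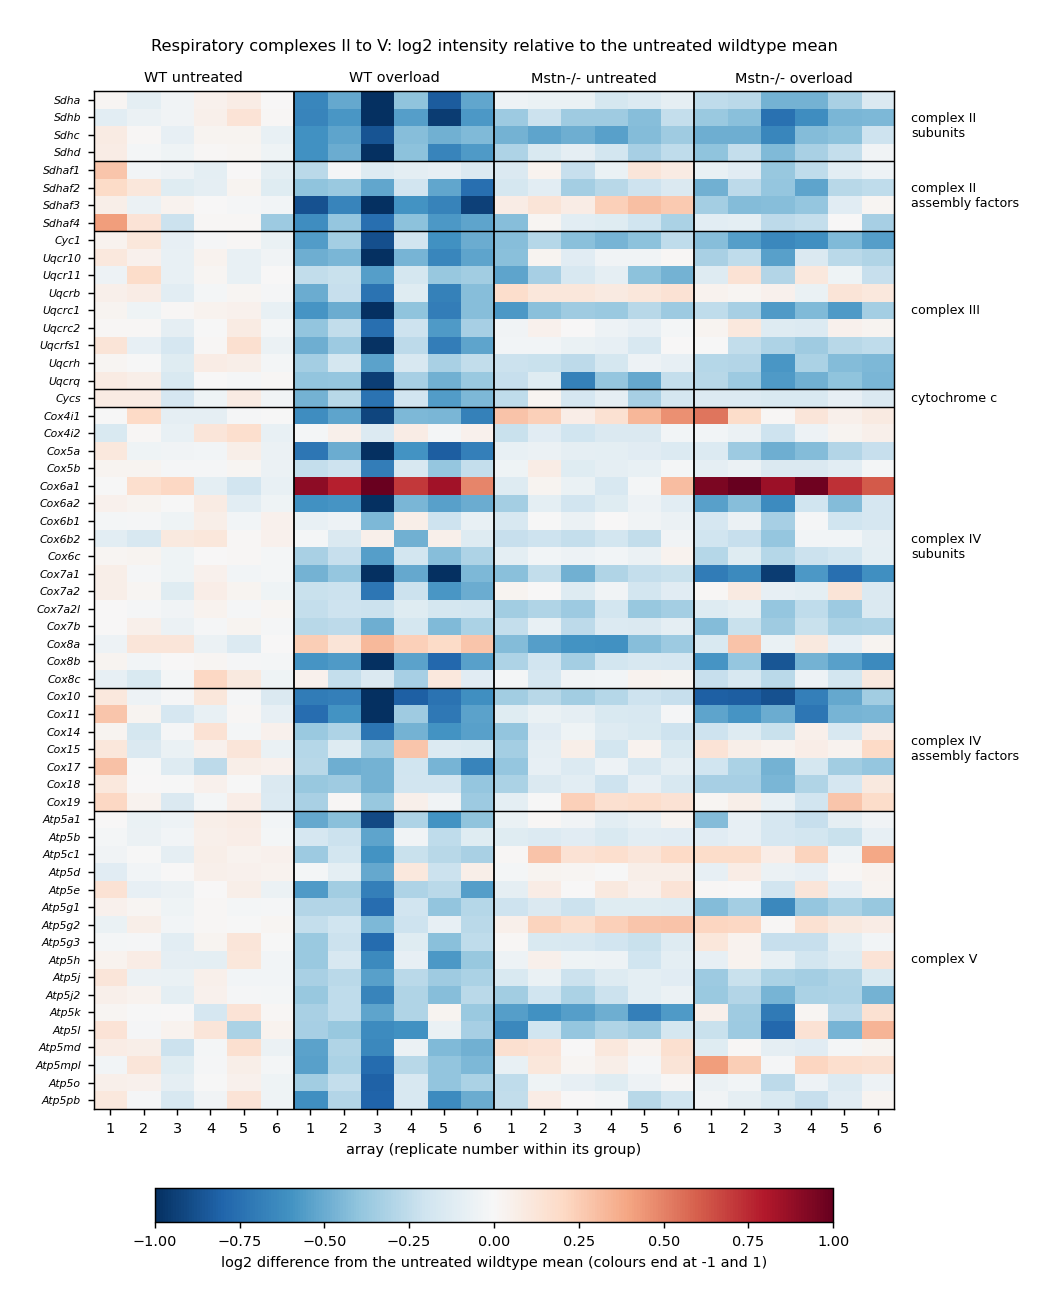
Log2 intensity of each of the 58 tested genes (rows, by role) on each array (columns, by group), as the difference from the untreated wildtype mean. Overloaded wildtype arrays are the lowest for most genes, with Cox6a1 and Cox8a standing higher, and the overloaded Mstn-/- arrays lie closer to the untreated ones.

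Complex II fell most as a role group, by a median of 1.56-fold. Sdhb, the iron-sulfur subunit that hands electrons on to ubiquinone, ran from 11.22 through a median of 11.31 to 11.46 in untreated wildtype and from 10.08 through 10.70 to 10.77 in overloaded wildtype muscle. The groups did not overlap, and the fall was 1.69-fold (log2 -0.76 ± 0.09, SE, adjusted p = 4.4e-08). The flavoprotein subunit gene Sdha fell 1.58-fold, and the membrane anchor genes Sdhc and Sdhd fell 1.47-fold and 1.55-fold. Sdhaf3, whose product helps insert the iron-sulfur clusters of Sdhb, had the largest fall of the whole set, 1.74-fold (log2 -0.80 ± 0.08, adjusted p = 1.6e-09), from 8.75 to 8.86 down to 7.73 to 8.21. Sdhaf1, of related function, missed the threshold at log2 -0.12 ± 0.07 (adjusted p = 0.12). Its fall was called after a further quantile normalization (-0.20, adjusted p = 0.0088) and with arrays shifted to the same median (-0.19, adjusted p = 0.024). With every array centred on the mean of the fibre markers it was instead a called rise (0.15, adjusted p = 0.0495).

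In complex III the core subunit gene Uqcrc1 fell 1.54-fold and Cyc1, the haem subunit that reduces cytochrome c, fell 1.42-fold (log2 -0.51 ± 0.08, adjusted p = 1.8e-06). The smallest fall of the complex was that of Uqcrh, 1.23-fold. Cycs, the mobile carrier itself, fell 1.36-fold (log2 -0.45 ± 0.07, adjusted p = 5.1e-06), from 12.19 to 12.44 down to 11.62 to 12.17. A second probe set of Cycs gave a larger fall, log2 -0.95.

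The complex IV subunits were the only role group with called changes in both directions in this comparison. Cox6a1 ran from 8.06 through a median of 8.21 to 8.46 in untreated and from 8.74 through 9.06 to 9.24 in overloaded wildtype muscle, without overlap, a rise of 1.72-fold (log2 0.78 ± 0.09, adjusted p = 4.5e-08). Its muscle counterpart Cox6a2 ran from 13.19 through 13.31 to 13.38 untreated and from 12.17 through 12.73 to 12.84 overloaded, a fall of 1.56-fold (log2 -0.64 ± 0.09, adjusted p = 6.6e-07). Cox8a rose 1.18-fold (log2 0.23 ± 0.07, adjusted p = 0.0027) while Cox8b fell 1.66-fold (log2 -0.73 ± 0.10, adjusted p = 3.0e-07), neither with overlapping arrays. Both isoforms of the third pair fell, Cox7a1 by 1.58-fold and Cox7a2 by 1.33-fold. Cox5a fell 1.67-fold and Cox4i1 1.52-fold, whereas the change of Cox4i2, a form known from lung, was 0.00 ± 0.06 (adjusted p = 1.0). Cox10, which makes the haem A precursor of complex IV, fell 1.73-fold (log2 -0.79 ± 0.09, adjusted p = 7.5e-09).

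Complex V fell by a median of 1.29-fold, less than the subunits of complexes II and III. Its catalytic subunit genes Atp5a1 and Atp5b fell 1.44-fold and 1.17-fold, and the 3 genes for the proton-carrying c subunit, Atp5g1, Atp5g2 and Atp5g3, fell 1.29-fold, 1.18-fold and 1.28-fold. With the mean of its 3 probe sets Atp5g2 changed by -0.18 and was not called (adjusted p = 0.063). Atp5d was the single gene of the complex that missed the threshold (log2 -0.11 ± 0.07, adjusted p = 0.15).

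Markers of other cells moved with these falls. Of 10 macrophage markers 9 rose and 0 fell, their mean level going from 7.67 to 8.13 on untreated wildtype arrays to 9.73 to 10.29 on overloaded ones, and all 8 fibroblast markers rose. Of 7 slow fibre markers 5 rose and 1 fell, their mean level going from 9.69 to 10.63 on untreated arrays to 10.49 to 11.33 on overloaded ones. In Mstn-/- muscle, for comparison, 7 of the 8 fibroblast markers rose. In wildtype muscle 0 of 8 fibre markers rose and 4 fell, with a median of -0.13 and changes from -1.08 to 0.11. Their part in the result was not tested. When every array was centred on the mean of the 8 fibre markers, which moved the median of all genes by 0.27, 27 genes of the set fell and 6 rose, and the changes of Cox7a2l, Atp5b and Atp5g2 turned from falls to uncalled rises. Under that centring 14.5% of all genes fell and 58.7% rose. The falls of Cox7a2, Atp5g1 and Atp5g3 were then not called.

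The median of the 58 genes on each array, as a log2 difference from the untreated wildtype mean, showed how the overloaded wildtype animals varied. It ran from -0.06 to 0.04 on untreated and from -0.71 to -0.21 on overloaded wildtype arrays. Replicate 3 was lowest at -0.71 and replicate 4 highest at -0.21, and replicate 3 also had the lowest mean of fibre markers, 13.06 against 13.22 to 13.34 on the other 5. With replicates 3 and 4 both left out, 47 genes of the set fell and 2 rose, where 32% of all genes fell and 28.3% rose.

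**Figure D2:**
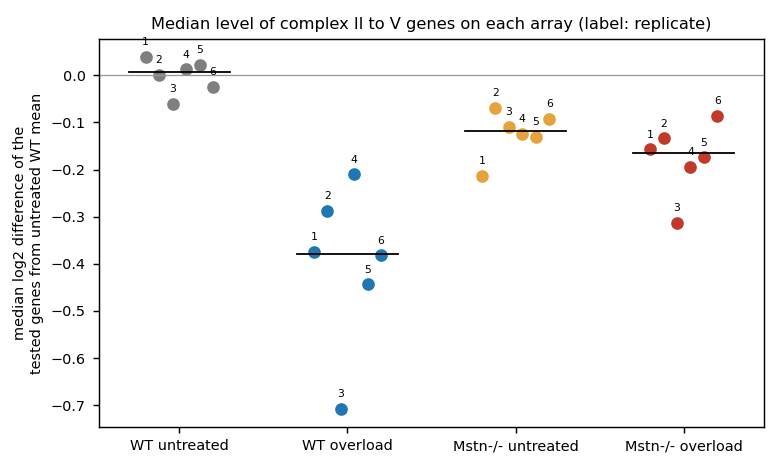
Median over the 58 tested genes of the log2 difference from the untreated wildtype mean, one point per array with its replicate number, and a line at the middle of each group. The overloaded wildtype arrays spread from -0.71 to -0.21, and the 12 Mstn-/- arrays lie between -0.31 and -0.07.

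In Mstn-/- muscle overload changed fewer of these genes. Of the 58 genes 15 fell and 5 rose, where 33.5% of all tested genes fell and 27.1% rose, and the median change was -0.07, against -0.06 for all tested genes. Arrays of 9 genes did not overlap, against 39.9% of all tested genes. With arrays shifted to the same median, 26 fell and 4 rose, where 46.3% of all genes fell and 22.8% rose. With array weights 23 fell and 6 rose, where 37.6% of all genes fell and 28.4% rose. Without overloaded Mstn-/- replicate 3, 12 fell and 8 rose, where 30.1% of all genes fell and 25.9% rose.

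Cox6a1 rose 1.85-fold in Mstn-/- muscle (log2 0.89 ± 0.09, adjusted p = 1.0e-08), from 8.09 to 8.56 up to 8.87 to 9.43. Cox8a rose 1.43-fold (log2 0.51 ± 0.07, adjusted p = 1.9e-07), from 9.84 to 10.08 up to 10.30 to 10.73. Neither gene had overlapping arrays. Atp5k, the e subunit of ATP synthase, rose 1.31-fold (log2 0.39 ± 0.10, adjusted p = 0.0022), Uqcr11, a small complex III subunit, rose 1.19-fold, and Cox15, which acts after Cox10 in haem A synthesis, rose 1.15-fold (adjusted p = 0.036). The Cox15 call was lost after a further quantile normalization (log2 0.14, adjusted p = 0.092), with arrays shifted to the same median (0.14, adjusted p = 0.14), and without untreated Mstn-/- replicate 1, 4 or 6 or overloaded replicate 1 or 6 (adjusted p = 0.061 to 0.10).

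The largest falls were those of Sdhaf3 (1.37-fold), the copper-insertion factor gene Cox11 (1.36-fold), Cox10 and Cox7a1 (both 1.31-fold) and Cox8b (1.28-fold). Of the complex II subunits Sdha fell 1.17-fold (adjusted p = 0.015), or by 0.14 on the log2 scale with no call after a further quantile normalization (adjusted p = 0.079), while Sdhc lay at 11.37 to 11.55 untreated and 11.26 to 11.71 overloaded (log2 0.02 ± 0.07, adjusted p = 0.77). Cycs lay at 12.02 to 12.39 and 12.21 to 12.27 (log2 0.03 ± 0.07, adjusted p = 0.72), but its second probe set was lower by -0.43 and the mean of its probe sets gave a called fall of -0.20. In complex V 3 of 17 genes fell, Atp5g1 by the most at 1.20-fold, and 1 rose. Macrophage markers rose here too, 9 of 10, and 1 fell, while 3 of 8 fibre markers rose and 4 fell. Of 7 slow fibre markers 4 rose and 0 fell, with mean levels of 7.95 to 8.56 untreated and 9.11 to 9.31 overloaded. Their part in the result was not tested.

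**Figure D3:**
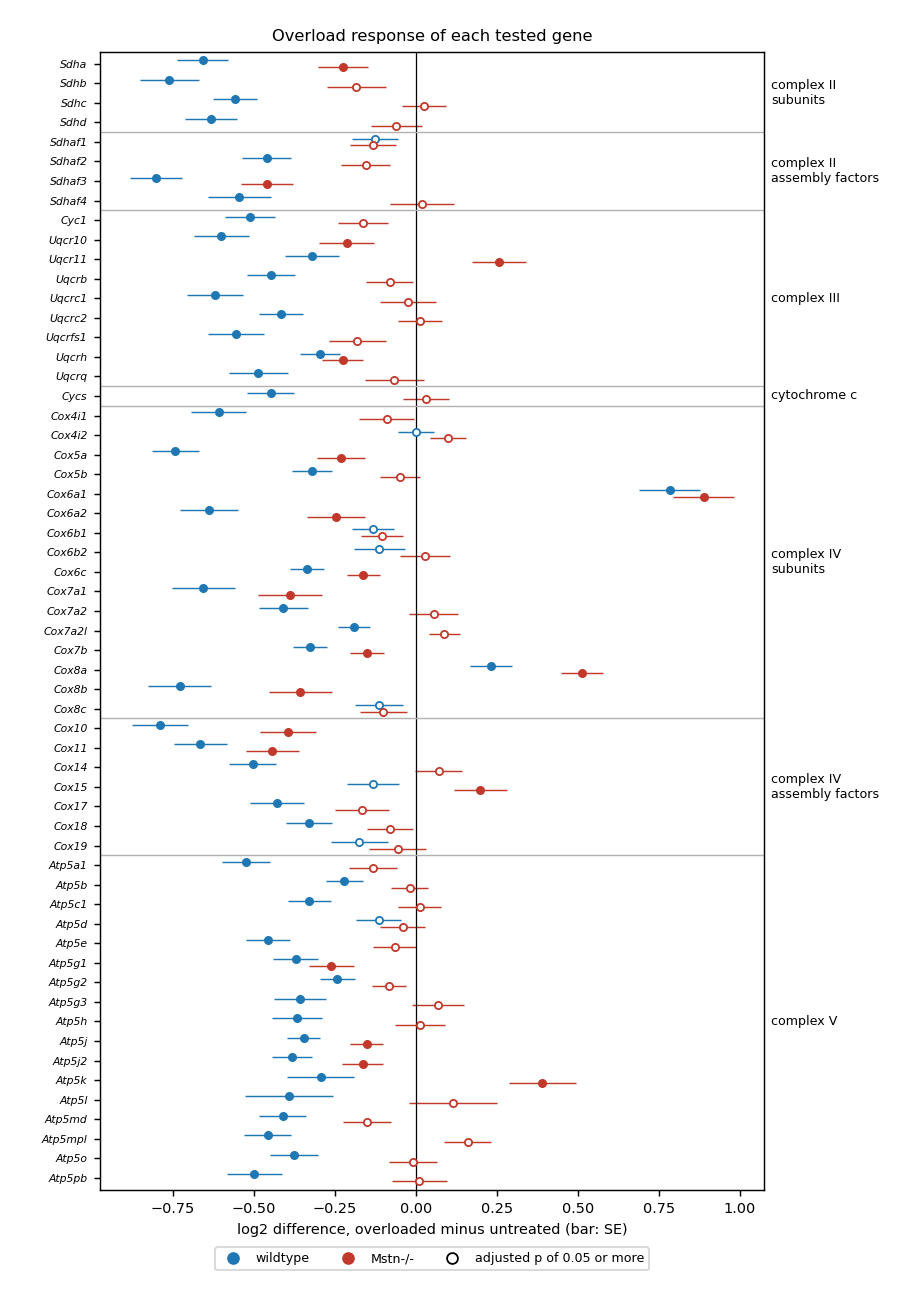
Log2 change under overload of each tested gene in wildtype (blue) and Mstn-/- muscle (red), with its standard error, filled where the adjusted p is below 0.05. Cox6a1 and Cox8a lie to the right in both genotypes, and most other blue points lie to the left of the red point of the same gene.

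The change under overload was then compared between the genotypes by the interaction term. It was positive, that is, less negative or more positive in Mstn-/- muscle, for 34 of the 58 genes and negative for 0, where 17.4% of all tested genes were called, 8.92% positive and 8.44% negative. The median was 0.36 against -0.02 for all tested genes. Called were 4 of 4 complex II subunits, 8 of 9 complex III genes, cytochrome c, 7 of 16 complex IV subunits and 9 of 17 complex V genes, with 2 of 4 and 3 of 7 assembly factors of complexes II and IV. The complex II assembly factor gene Sdhaf4 is among them, but only 1 of its 2 probe sets was called (log2 0.56 and -0.17).

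Atp5k had the largest difference, log2 0.68 ± 0.15 (adjusted p = 0.0019): it ran from 9.78 through a median of 9.95 to 10.09 in untreated and from 9.42 through 9.64 to 9.97 in overloaded wildtype, and from 9.27 through 9.39 to 9.46 in untreated and from 9.24 through 9.83 to 10.10 in overloaded Mstn-/- muscle. The called changes had opposite directions, a fall of 1.22-fold and a rise of 1.31-fold, though the arrays of untreated and overloaded muscle overlapped in both genotypes. The fall of Atp5k in wildtype was not called without overloaded wildtype replicates 3 and 4 (log2 -0.23, adjusted p = 0.084) or with arrays centred on the fibre markers (-0.02, adjusted p = 0.84). Uqcr11 was the other gene with opposite called changes (difference 0.58 ± 0.12, adjusted p = 0.0012), and centring left its wildtype change at -0.05 (adjusted p = 0.60). With each probe set tested on its own, its rise in Mstn-/- muscle was called for 1 of 2 probe sets (log2 0.26 and 0.17). Atp5mpl, a small ATP synthase subunit, differed by 0.62 ± 0.10 (adjusted p = 1.6e-04), Uqcrc1 by 0.60 ± 0.12, and Sdhc and Sdhb both by 0.58. The difference was smallest for Sdhaf1 (log2 -0.01 ± 0.10, adjusted p = 0.98), and for Cox6a1 it was 0.10 ± 0.13 (adjusted p = 0.66). In all, 31 genes fell in wildtype and were not called in Mstn-/- muscle, 15 fell in both, 2 rose in both, and 7 were called in neither.

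Macrophage and fibroblast markers went the other way in this contrast, with 6 of 10 and 5 of 8 called negative and 0 positive. Called positive were 3 of 8 fibre, 4 of 6 endothelial and 2 of 7 slow fibre markers, and 0 of these were called negative. Their part in the result was not tested. Centring on the fibre markers, which moved the median of all genes by -0.25, left 13 positive and 3 negative calls, where 2.95% of all genes were called positive and 56.7% negative. Without this centring, the complex I genes, 43 with symbols starting in Nduf, gave 31 positive and 0 negative calls with a median of 0.35. In that fit 8.92% of all tested genes were called positive and 8.44% negative.

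Without overload the genotypes differed in fewer genes. Mstn-/- muscle was lower in 14 and higher in 2 of the 58 genes, where 10.2% and 11.1% of all tested genes were lower and higher, with a median of -0.13 against -0.01. Arrays of 19 genes did not overlap, against 12.0% of all tested genes. Lower were 3 of 4 complex II subunits, 4 of 9 complex III genes, 4 of 16 complex IV subunits, 2 of 17 complex V genes and the assembly factor gene Cox10. Atp5k was 1.49-fold lower (log2 -0.57 ± 0.10, adjusted p = 2.2e-04), Cox8a 1.41-fold lower (log2 -0.50 ± 0.07, adjusted p = 3.2e-06) and Sdhc 1.39-fold lower (log2 -0.47 ± 0.07, adjusted p = 1.3e-05). Uqcrc1 and Cyc1 were 1.31-fold and 1.30-fold lower. Cox4i1 and Atp5g2 were 1.19-fold and 1.16-fold higher (adjusted p = 0.033 and 0.0066). The Cox4i1 call was lost after a further quantile normalization (log2 0.23, adjusted p = 0.052) and without untreated Mstn-/- replicate 1, 5 or 6 or wildtype replicate 3, 4, 5 or 6 (adjusted p = 0.051 to 0.089). With the mean of its 3 probe sets Atp5g2 differed by 0.08 and was not called (adjusted p = 0.56). Slow fibre markers were lower with them, all 7 of 7, their mean running from 7.95 to 8.56 in Mstn-/- and from 9.69 to 10.63 in wildtype muscle. Also lower were 4 of 6 endothelial and 3 of 8 fibre markers, with 0 higher. Higher were 5 of 10 macrophage and 1 of 8 fibroblast markers, with 0 lower. The part of these markers in the result was not tested. With arrays centred on the fibre markers 9 genes were lower and 6 higher, where 3.57% and 22.3% of all genes were. With array weights it was 22 and 4, where 13.7% and 14.8% of all genes were lower and higher.

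Under overload the median difference between the genotypes was positive rather than negative, but the called genes were mostly others. Of the genes lower in untreated Mstn-/- muscle only Sdhb, Sdhd and Uqcr11 were called higher here. The higher call of Sdhb was lost after a further quantile normalization (log2 0.22, adjusted p = 0.0515). That of Uqcr11 was lost with the mean of its probe sets (0.19, adjusted p = 0.063). The call of Sdhd as lower without overload was lost with arrays shifted to the same median (-0.20, adjusted p = 0.088). Cox4i1 and Atp5g2 were called higher with and without overload. Mstn-/- muscle was higher in 30 and lower in 1 of the 58 genes, where 17.5% of all tested genes were higher and 19.0% lower, with a median of 0.21 against -0.03. Arrays of 14 genes did not overlap, against 15.5% of all tested genes. Higher were 3 of 4 complex II subunits, 5 of 9 complex III genes, cytochrome c, 6 of 16 complex IV subunits and 10 of 17 complex V genes, with 2 of 4 and 3 of 7 assembly factors of complexes II and IV. For Sdhaf4, a complex II assembly factor counted here, 1 of 2 probe sets was called (log2 0.37 and -0.04). Cox4i1, a subunit of complex IV, ran from 9.64 through a median of 9.98 to 10.10 in overloaded wildtype muscle. In overloaded Mstn-/- muscle it ran from 10.56 through 10.66 to 11.09, a difference of 1.71-fold (log2 0.77 ± 0.09, adjusted p = 1.7e-07) without overlap. Atp5mpl was 1.57-fold higher (log2 0.66 ± 0.07, adjusted p = 1.4e-07), Sdhaf3 1.43-fold, and Atp5c1, the rotor subunit gene of complex V, and Uqcrb both 1.41-fold. Cox8a was the gene lower in Mstn-/- muscle, by 1.16-fold (log2 -0.21 ± 0.07, adjusted p = 0.011). With arrays centred on the fibre markers, which moved the median of all genes by -0.16, 18 genes were higher and 12 lower, where 8.11% of all genes were higher and 54.1% lower, and Cox6c turned from higher to lower. The 8 fibre markers themselves went both ways before centring, 4 higher and 2 lower, with log2 differences from -0.39 to 0.92. Slow fibre markers were lower in Mstn-/- muscle here too, 7 of 7, their mean running from 9.11 to 9.31 against 10.49 to 11.33 in wildtype. Of 8 fibroblast markers 7 were lower and 0 higher, at 11.09 to 11.46 against 11.68 to 11.96, and of 10 macrophage markers 3 were lower and 0 higher. Their part in the result was not tested.

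**Figure D4:**
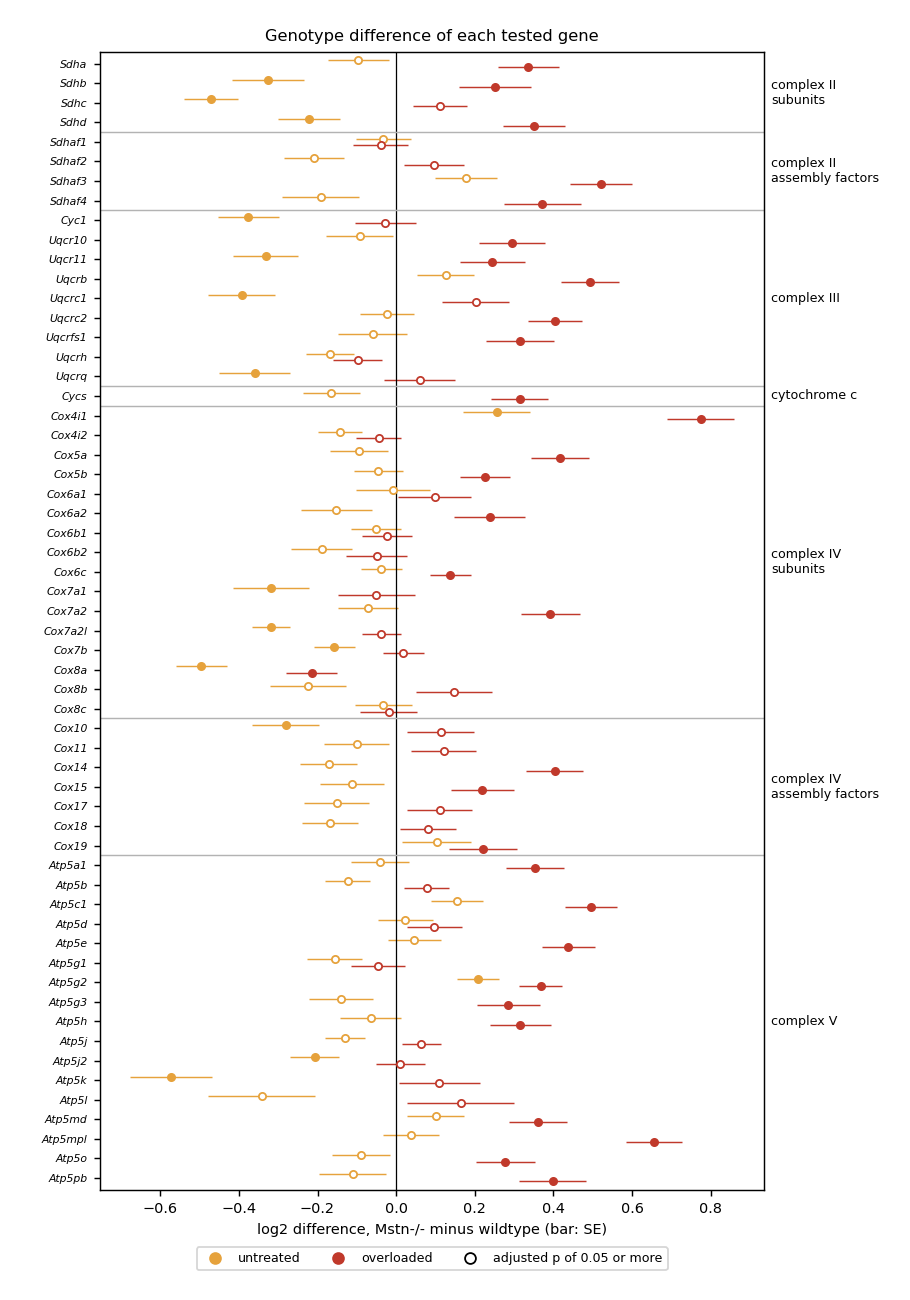
Log2 difference of Mstn-/- minus wildtype for each tested gene in untreated (orange) and overloaded muscle (red), with its standard error, filled where the adjusted p is below 0.05. Most orange points lie left of 0 and most red points right of it. Cox8a lies left of 0 in both.

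Because isoforms of a subunit stand in for each other, the log2 ratio of their intensities within an array was compared between groups by a two-sided exact permutation test over 6 against 6 arrays, which cannot give a p below 0.0022, with Benjamini-Hochberg adjustment over 16 tests. Ratios of intensities of different probe sets carry no absolute level, so only their change is given. The ratio of Cox6a2 to Cox6a1 fell by 1.42 ± 0.17 (SE) under overload in wildtype and by 1.14 ± 0.14 in Mstn-/- muscle (n = 6 per group, exact permutation, adjusted p = 0.0031 for both). The ratio of Cox8b to Cox8a fell by 0.96 ± 0.15 and 0.87 ± 0.07 (exact permutation, adjusted p = 0.0031 for both). That of Cox7a1 to Cox7a2 fell by 0.25 ± 0.07 (exact permutation, adjusted p = 0.016) and 0.44 ± 0.09 (adjusted p = 0.0031). In these 3 pairs the muscle form thus lost ground to the common form in both genotypes, Cox7a1 over Cox7a2 with overlapping arrays in wildtype muscle.

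The ratio of Cox8b to Cox8a was higher in Mstn-/- muscle by 0.27 ± 0.06 untreated and 0.36 ± 0.16 overloaded (exact permutation, adjusted p = 0.0031 and 0.0087), while that of Cox7a1 to Cox7a2 was lower by -0.25 ± 0.06 and -0.44 ± 0.10 (exact permutation, adjusted p = 0.0031 for both). For Cox6a2 to Cox6a1 the differences were -0.14 ± 0.09 and 0.14 ± 0.20 (exact permutation, adjusted p = 0.15 and 0.50). Cox4i2 to Cox4i1 rose by 0.61 ± 0.08 under overload in wildtype (exact permutation, adjusted p = 0.0031) and changed by 0.19 ± 0.09 in Mstn-/- muscle (exact permutation, adjusted p = 0.074), or by 0.04 after a further quantile normalization. It was lower in Mstn-/- than in wildtype muscle, by -0.40 ± 0.08 untreated and -0.82 ± 0.09 overloaded (exact permutation, adjusted p = 0.0031 for both).

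**Figure D5:**
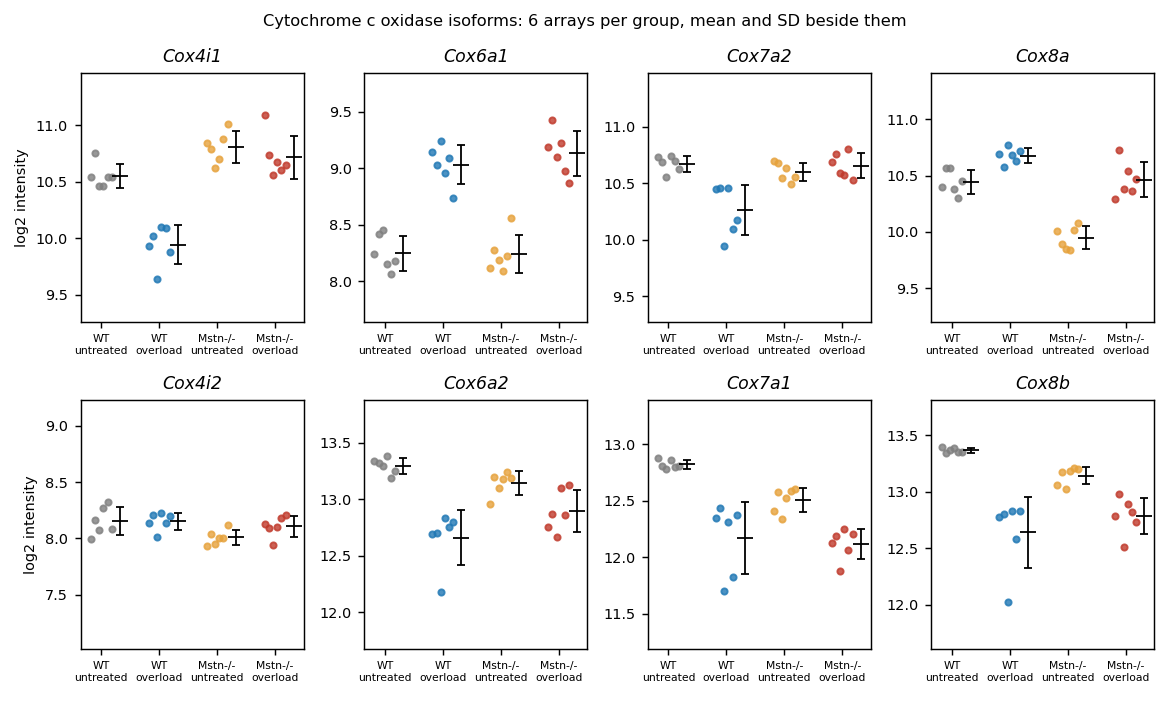
Log2 intensity of 8 complex IV isoform genes on the 6 arrays of each group (points), with the group mean and SD as a bar beside them, common forms above and Cox4i2 and muscle forms in the lower row. Cox6a1 is higher in both overloaded groups while Cox6a2, Cox7a1 and Cox8b are lower.

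Other genes that serve these complexes were counted in the same fit. Of 26 tested assembly and accessory factors 23 fell and 1 rose under overload in wildtype, and 15 fell and 1 rose in Mstn-/- muscle. The gene that rose was Atpif1, which encodes the inhibitor of ATP synthase, by 1.99-fold (adjusted p = 5.7e-13) and 1.71-fold (adjusted p = 1.4e-10). Atpaf1, an ATP synthase assembly factor, fell 2.01-fold and Uqcc1, a complex III assembly factor, 1.94-fold in wildtype muscle. Of 10 carriers and energy transfer genes 8 fell and 1 rose in wildtype muscle. The muscle ADP/ATP carrier gene Slc25a4 fell 1.59-fold while its counterpart Slc25a5 rose 1.59-fold, and in Mstn-/- muscle they changed by 1.17-fold down and 1.57-fold up.

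Of 12 regulators 9 fell and 1 rose under overload in wildtype, and 7 fell and 2 rose in Mstn-/- muscle. Ppargc1a ran from 10.36 through 10.56 to 10.59 in untreated and from 8.63 through 9.24 to 9.64 in overloaded wildtype muscle, a fall of 2.47-fold (adjusted p = 3.4e-10), and from 10.24 through 10.29 to 10.38 and 9.91 through 10.40 to 10.66 in Mstn-/- muscle. The wildtype groups did not overlap and the Mstn-/- groups did, and the interaction was 1.38 on the log2 scale (adjusted p = 4.4e-06). Ppara, a nuclear receptor of fatty acid use, fell 3.19-fold in wildtype and 1.51-fold in Mstn-/- muscle.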

How the data were processed

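The deposited table holds 1 intensity per probe set and array, made by the authors with RMA (background correction, normalization and probe set summary), per the submitters' processing notes, which name no version. Values in the deposited table lie between 4.724 and 25588.86, a linear scale, and their log2 was used with no pseudocount. Of 34760 probe sets, 21640 with 1 gene symbol were used, of which 21553 matched RefSeq GRCm38.p6, and the highest mean decided between probe sets of a gene (14 of the 59 genes have several). Genes with a group mean above the 30th percentile (intensity 98.92) were tested. limma 3.58.1 in R 4.3.3 fitted 1 mean per group to all 24 arrays, with eBayes and Benjamini-Hochberg adjustment over 14499 genes. The fit was tested on simulated data. Depth has no meaning for arrays, and their number limits the precision (median SE of the genes described 0.075, log2). Replicates are separate mice per the labels. Samples were grouped by genotype and treatment in the labels.

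The genes, lists and tests were chosen with earlier results of these data known. Genes are named by rule: complex II subunits, Cycs, Cyc1 and isoform sets, the 5 largest called changes in each direction per comparison, genes against the majority of their role, the largest and smallest interaction, and up to 4 genes of each other list by adjusted p. Uqcrh, Atp5d and Cox6c were named after their values were seen, as single exceptions. Replicate numbers do not pair the arrays: of 36 same-numbered pairs 9 correlated above 0.1 (range -0.41 to 0.36). Alternatives were a further quantile normalization, a shift to the same median, other filters, the mean of probe sets, a trended and robust variance, array weights, the replicate block and leaving out each array; leaving out overloaded wildtype replicates 3 and 4 together, centring on fibre markers and testing each probe set were chosen after seeing the data. None of the 6 mitochondrially encoded genes of complexes III to V looked for had a single-symbol probe set. Both brown adipocyte markers lay below the filter. Of 6 endothelial markers 4 rose and 1 fell under overload in wildtype, and of 2 cardiomyocyte markers and the 1 tested neuron marker 0 rose.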

Additional observations from a re-analysis of the deposited data

Results flagged for a closer look

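Of 136 sets of 6 arrays checked, 1 per named gene and group, 13 held an array set apart from the other 5, where chance alone gives about 1 in 20, or 6.8. Overloaded wildtype replicate 3 was the low array for Cox10 (8.73, log2), Cox6a2 (12.17), Cox8b (12.03) and Atp5g1 (12.74), and replicate 4 of that group was high for Cox15 (9.14) and low for Cox6b2 (6.72). Untreated wildtype replicate 2 was high for Uqcr11 (10.32) and Cox4i1 (10.76), and replicate 1 for Sdhaf1 (8.72). In Mstn-/- muscle, overloaded replicate 1 was high for Cox4i1 (11.09), replicate 3 low for Atp5g1 (12.85) and replicate 5 high for Cycs (12.27), and untreated replicate 6 was high for Cox6b2 (7.17).

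The overload response differed between genotypes for 34 of the 58 genes by the interaction term in limma, where 17.4% of all tested genes were called. The largest log2 differences were those of Atp5k (0.68), Atp5mpl (0.62), Uqcrc1 (0.60), Sdhc (0.58) and Sdhb (0.58).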

How the results depend on the processing

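Counts of called genes moved by over 1.5 times in 3 cases: centring on the fibre markers gave 33 in place of 50 for overload in wildtype and 16 in place of 34 for the interaction, and array weights gave 26 in place of 16 for untreated Mstn-/- against wildtype. Centring subtracts the fall of the markers from every gene by construction. Under it the changes in wildtype became 0.15 for Sdhaf1, 0.14 for Cox6b1, 0.079 for Cox7a2l, 0.050 for Atp5b and 0.029 for Atp5g2, and the interaction of Cox6b1 became -0.23. Of these, the rises of Sdhaf1 and Cox6b1 (adjusted p = 0.0495 and 0.038) and the interaction of Cox6b1 (adjusted p = 0.024) were called. With the mean of all probe sets Cycs changed by -0.20 under overload in Mstn-/- muscle, where its probe sets differ. Leaving out 1 array at a time gave 50 to 54 called genes for overload in wildtype, 18 to 24 in Mstn-/-, 12 to 21 for the untreated genotypes, 25 to 32 for the overloaded ones and 29 to 41 for the interaction. With the replicate block, whose numbers do not pair the arrays, the counts were 51, 21, 18, 30 and 34 in the same order. With overloaded wildtype replicates 3 and 4 left out they were 49, 26, 24, 27 and 37. The isoform ratios kept their direction and side of the threshold under the further quantile normalization, though that of Cox4i2 to Cox4i1 under overload in Mstn-/- muscle went from 0.19 to 0.04. The mean of probe sets could not change these ratios, because each of the isoform genes has only 1 probe set.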

Other observations

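Cox7c and Cox16 share their probe sets with another symbol and were not among the 59 genes. The probe set of Cox16 and Gm20498 lay at 9.80 ± 0.18 (SD, n = 6) in untreated and 9.25 ± 0.14 in overloaded wildtype muscle, and at 9.96 ± 0.09 and 9.66 ± 0.07 in Mstn-/- muscle. The brightest of 3 probe sets of Cox7c and Gm12338 lay at 13.30 ± 0.07 and 13.14 ± 0.09 in wildtype, and at 13.27 ± 0.05 and 13.26 ± 0.03 in Mstn-/- muscle.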
